A study of Mus musculus with 9 samples.

Results

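The IL-6 family cytokines, their receptor chains and the STAT3 pathway were followed through 10 genes of mouse skin, chosen by symbol from the 54532 genes of the expression table. They were 4 ligand genes (Il6, Il11, Lif and Osm), 4 receptor chain genes (Il6ra, Osmr, Lifr and Il6st), the transcription factor gene Stat3 and Socs3, its feedback inhibitor. RNA sequencing was done on skin of wild-type (WT) mice in 3 groups of 3 libraries. The first was healthy skin (control), the second had been given bleomycin, and the third bleomycin together with nitrate, which the study's title describes as topical. Bleomycin is a DNA-breaking antibiotic that makes mouse skin fibrotic and so serves as a model of systemic sclerosis, and nitrate can be reduced in tissue to nitrite and nitric oxide. The sources used here give no strain, age, dose, time point or number of animals. The p-values therefore describe spread between these libraries alone, and that spread may be technical. The last group is called nitrate below.

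Cytokines of the IL-6 family signal through gp130, the shared receptor chain encoded by Il6st, which pairs with a further chain that depends on the ligand. IL-6 uses the receptor chain encoded by Il6ra, LIF the one encoded by Lifr, and oncostatin M, the product of Osm, in the mouse mainly the one encoded by Osmr. Paired chains activate JAK kinases, which phosphorylate STAT3. STAT3 then switches on target genes, and one of these, Socs3, encodes a protein that binds gp130 and JAK kinases and dampens the signal. In skin the family is known for its part in wound repair and inflammation, with leukocytes, keratinocytes and fibroblasts among its sources and targets.

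Promoter sequence is shown for Il6, Lif and Socs3, members that were higher with bleomycin and for which RefSeq gave a start site (GRCm38.p6). A window was matched for 9 of the 10 members, and Osm was not matched. The windows of 250 bases before a start were searched on both strands for the STAT motif TTCNNNGAA, the AP-1 motif TGANTCA and an NF-kappa-B motif, GGG and TTTCC with any 2 bases between them. N is any base. Bases annotated as exon in GENCODE M21 were left out of what is printed, and capitals mark the matches. The Il6 stretch is chr5:30012864-30013113 (plus strand), that of Lif chr11:4257318-4257556 (plus strand) and that of Socs3 chr11:117969452-117969616 (minus strand).
Il6: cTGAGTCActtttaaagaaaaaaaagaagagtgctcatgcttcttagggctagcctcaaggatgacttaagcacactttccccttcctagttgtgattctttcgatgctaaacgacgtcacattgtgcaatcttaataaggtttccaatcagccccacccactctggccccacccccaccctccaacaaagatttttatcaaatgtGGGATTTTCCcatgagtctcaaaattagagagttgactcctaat
Lif: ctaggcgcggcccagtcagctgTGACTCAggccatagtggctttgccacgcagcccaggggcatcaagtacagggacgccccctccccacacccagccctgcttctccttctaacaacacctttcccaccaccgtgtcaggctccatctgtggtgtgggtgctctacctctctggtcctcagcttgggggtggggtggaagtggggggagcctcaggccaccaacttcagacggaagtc
Socs3: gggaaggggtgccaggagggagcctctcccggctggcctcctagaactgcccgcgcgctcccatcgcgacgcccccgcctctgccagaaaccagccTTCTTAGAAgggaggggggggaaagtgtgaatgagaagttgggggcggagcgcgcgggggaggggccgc

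The Il6 stretch held an AP-1 match from -249 to -243 and an NF-kappa-B match from -44 to -35, counted from the start site. The Lif stretch held an AP-1 match from -228 to -222, and the Socs3 stretch a STAT match, TTCTTAGAA, from -154 to -146. Among the 11 windows of the 9 matched members the STAT motif was found in the Socs3 window alone, and the windows of Stat3, Il6ra, Il6st, Osmr and Lifr held none of the 3 motifs. An alternative start of Il11 had an AP-1 match. Of all 32851 windows of this length, 7.02% held the STAT motif, 6.75% the AP-1 motif and 1.41% the NF-kappa-B motif. These are matches of letters, and binding was not measured. The RefSeq start of Socs3 lies 681 bases inside the gene as the expression table bounds it. That of Osmr lies 656 bases inside, the alternative start of Il11 4716 bases, and those of Lifr 38958 and 49928 bases. The sequence before the 5' end of Lifr, as the table bounds it, was therefore not searched.

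Across libraries, the levels of marker genes of cell types and states differed as well as treatment. The reads recovered per library ranged from 15804050 to 18352592. Marker lists are given as summed FPKM, fragments per unit of gene length and of the library size behind the deposited values, from the lowest to the highest library of a group. The neutrophil list ranged from 10.9 to 33.7 in control, 456 to 3208 in bleomycin and 22.6 to 184 in nitrate. Nearly all of that sum in bleomycin came from S100a8 and S100a9 (1389 and 1792 FPKM in bleomycin 1), which stressed keratinocytes are also known to express. The neutrophil receptor genes Csf3r and Cxcr2 were higher in bleomycin as well, at 9.74 FPKM or below. Csf3r ranged from 1.2 to 2.52 FPKM in control, 7.87 to 8.53 in bleomycin and 0.684 to 3.83 in nitrate. Cxcr2 ranged from 0 to 0.451, 5.38 to 9.74 and 0.724 to 2.2 FPKM in the same order of groups. The granule genes Mpo and Elane and the surface marker gene Ly6g stayed at 0.174 FPKM or below in all 9 libraries. The monocyte and macrophage list ranged from 301 to 462, 778 to 1311 and 254 to 592 in the same order of groups, the T cell list from 12.6 to 15.5, 33.9 to 46.2 and 24.5 to 27.9, and the mast cell list from 56.4 to 106, 176 to 233 and 93.9 to 181. Basal and suprabasal keratinocyte genes, which mark skin epidermis, ranged from 1716 to 3035, 5371 to 8653 and 4253 to 6959, and wound keratinocyte genes from 195 to 354, 1415 to 4413 and 872 to 1884. The fibroblast list ranged from 3777 to 4830, 1267 to 1963 and 1254 to 1941, the endothelial list from 140 to 161, 88.3 to 105 and 55 to 102, and the fat cell list from 357 to 577, 213 to 248 and 67.7 to 225. Skeletal muscle genes ranged from 11782 to 17585, 2362 to 10646 and 1829 to 7829, and immediate early genes from 228 to 268, 373 to 1145 and 355 to 379. Genes of the growing hair follicle ranged from 4.59 to 2131 in control, 53.6 to 3474 in bleomycin and 1789 to 11344 in nitrate, with control 1 and bleomycin 1 lowest in their groups and nitrate 3 highest of all. In tissue RNA, fewer cells of a type and less RNA per cell cannot be told apart.

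**Figure D1:**
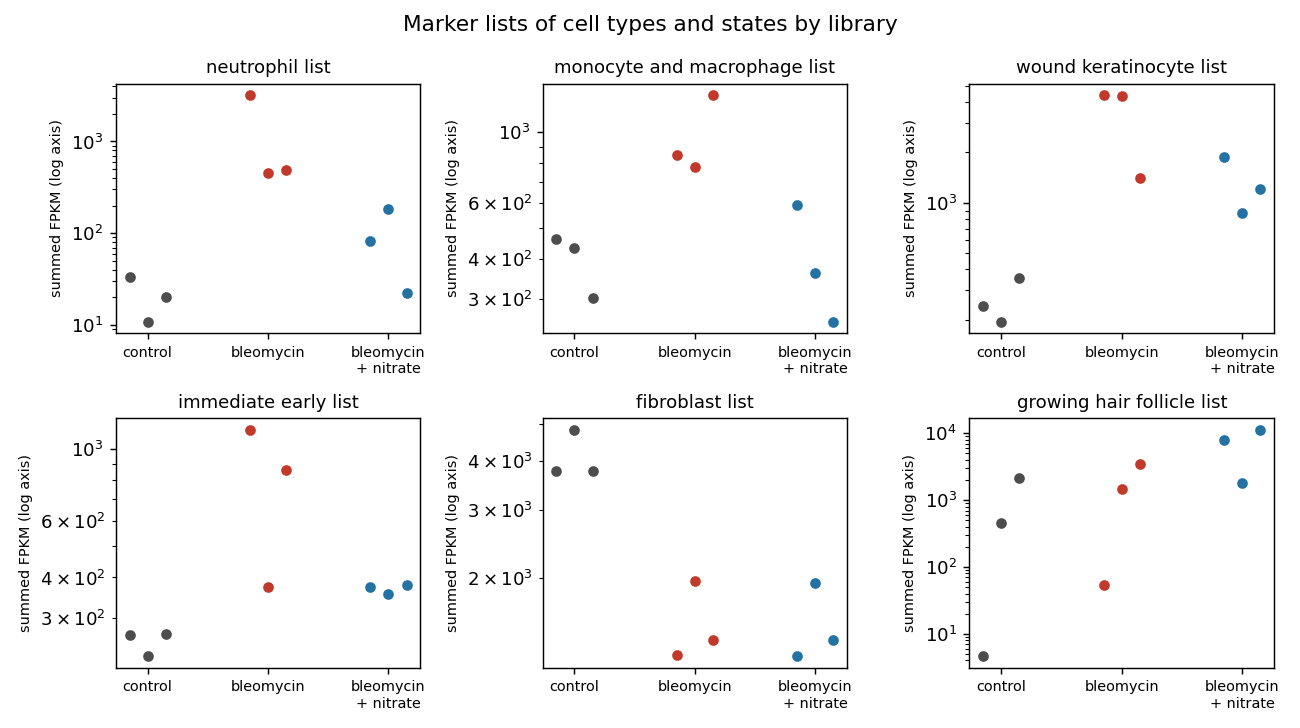
Summed FPKM (log axis) of 6 marker lists, with 1 point for each of the 3 libraries of control, bleomycin and bleomycin plus nitrate. The neutrophil list runs from 456 to 3208 in bleomycin and stays at 184 or below elsewhere, the fibroblast list is 3777 or above in control and 1963 or below in both other groups, and hair follicle genes differ widely within each group.

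In healthy skin the receptor and signalling genes far exceeded the ligand genes in level per length. Il6st stood first with a mean of 58.2 FPKM, followed by Stat3 with 22.2, Socs3 with 10.4, Il6ra with 9.02, Lifr with 8.99 and Osmr with 6.19. The ranges of Socs3 and Il6ra overlapped, as did those of Il6ra and Lifr. The ligands followed with Lif at 0.407 FPKM, Il11 at 0.168, Il6 at 0.147 and Osm at 0.0995, each overlapping its neighbour. With bleomycin Socs3 stood first at 51.5 FPKM, and its range overlapped that of Il6st at 41.0 FPKM. Il6, Osm and Lif had nearly the same mean there, 1.77, 1.75 and 1.63 FPKM. With nitrate the order was again Il6st, Stat3 and Socs3, at 34.5, 18.0 and 11.7 FPKM, with overlapping ranges of Stat3 and Socs3.

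**Figure D2:**
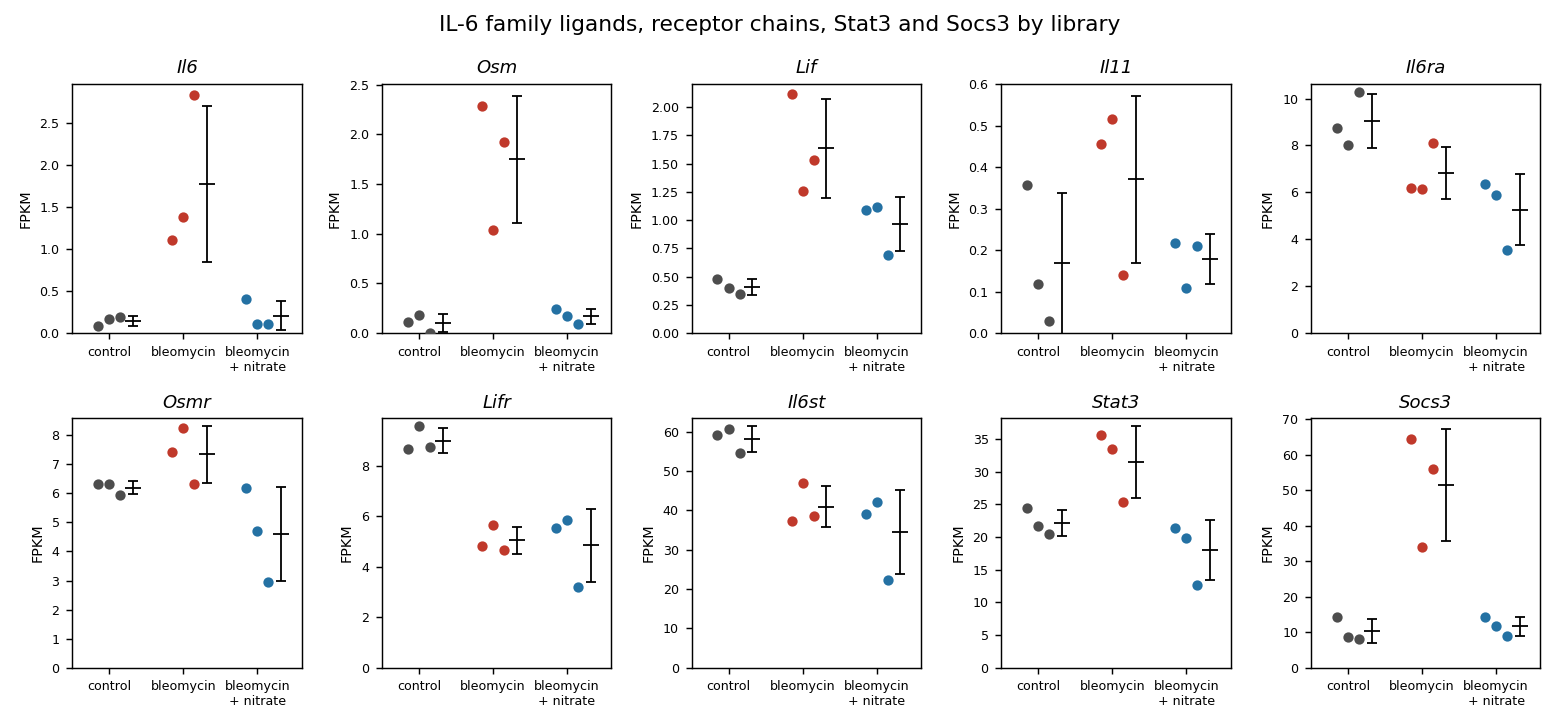
FPKM of the 10 genes in each library (points) with the mean and SD of each group of 3 libraries (bars), on separate axes that start at 0. Il6, Osm and Socs3 are high in all 3 bleomycin libraries and low in control and nitrate libraries, while Lifr and Il6st are highest in control.

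Bleomycin was first set against control. Differences below are of log2(FPKM + 1) ± standard error from limma, with p adjusted by Benjamini-Hochberg across 14645 genes, of which 4.74% were called higher and 3.69% lower at an adjusted p under 0.05. Of the 10 genes 9 were tested, since Il11 never reached 1 FPKM, and 4 were called higher (Il6, Lif, Osm and Socs3) and 1 lower (Lifr). Without overlap between the groups, 6 members were higher (18.4% of all tested genes) and 2 lower (17.3%). Since no library outside the bleomycin group reached 1 FPKM of Il6 or Osm, the filter on low values fixed their direction. Lif reached 1 FPKM in no control library either. It entered the test only through bleomycin and nitrate libraries, so the filter bears on its direction against control too. The added 1 makes differences smaller than log2 ratios for low genes, so sizes cannot be compared between ligands and receptors. Over the alternatives with smaller pseudocounts or recovered reads the log2 differences reached 3.43 for Il6, 4.62 for Osm and 1.96 for Lif.

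Oncostatin M is a cytokine released mainly by myeloid cells and T cells. Osm (ENSMUSG00000058755, chromosome 11, 4236420 to 4241026 in mm10) was at 0.115, 0.183 and 0 FPKM in control 1, 2 and 3, from 4, 7 and 0 reads. A count of 0 allows up to 3 reads there, or 0.0759 FPKM. In bleomycin 1, 2 and 3 it was at 2.29, 1.04 and 1.92 FPKM, from 85, 41 and 77 reads. Every bleomycin library lay above every control library, and bleomycin 2 was lowest of its group. The mean rose 17.6-fold, from 0.0995 ± 0.0926 to 1.75 ± 0.643 FPKM (SD, n = 3; difference 1.30 ± 0.21, adjusted p = 0.0113). The call of Osm was lost without control 1 and bleomycin 1 together (adjusted p = 0.0902), and over the settings its adjusted p ranged from 0.00632 to 0.0902.

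Il6 (ENSMUSG00000025746, chromosome 5, 30013114 to 30019981), which gives the family its name, was at 0.0808, 0.171 and 0.190 FPKM in the control libraries, from 3, 7 and 8 reads. It was at 1.11, 1.38 and 2.83 FPKM in bleomycin 1, 2 and 3, from 44, 58 and 121 reads, so that bleomycin 3 held more than the other two together. The groups did not overlap. Its mean rose 12-fold, from 0.147 ± 0.0583 to 1.77 ± 0.922 FPKM (SD, n = 3; 1.22 ± 0.24, adjusted p = 0.0212). The call of Il6 was lost without control 1 (0.0609), control 2 (0.0735), control 3 (0.0562) or bleomycin 3 (0.0517), and without control 1 and bleomycin 1 together (0.0812), over a range from 0.0124 to 0.0812.

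Lif (ENSMUSG00000034394, chromosome 11, 4257557 to 4272514), a cytokine of stem cell maintenance and tissue stress, had the highest mean of the 4 ligands in control, at 0.481, 0.396 and 0.344 FPKM. It was at 2.12, 1.26 and 1.53 FPKM in bleomycin 1, 2 and 3, all above control. Its mean rose 4.01-fold, from 0.407 ± 0.0693 to 1.63 ± 0.438 FPKM (SD, n = 3; 0.89 ± 0.17, adjusted p = 0.0193). The call of Lif was lost without control 2 (0.0720), control 3 (0.0602), bleomycin 1 (0.0646) or bleomycin 3 (0.0602), and without control 1 and bleomycin 1 together (0.114), over a range from 0.00993 to 0.114. Il11 (ENSMUSG00000004371, chromosome 7, 4772373 to 4782857), a ligand studied in fibrosis, was at 0.358, 0.118 and 0.0286 FPKM in control and 0.457, 0.516 and 0.141 FPKM in bleomycin. Its groups overlapped, and with 16 and 38 reads over the 3 libraries of each group no difference was detectable at this depth (exact permutation test, two-sided, p = 0.2, where 0.1 is the smallest p that 3 libraries against 3 allow).

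The summed neutrophil, monocyte and macrophage, T cell, mast cell, wound keratinocyte and immediate early levels were higher in bleomycin too. Not every gene of these lists was higher. Above control without overlap were 6 of 10 neutrophil genes, 6 of 10 monocyte and macrophage genes and 6 of 8 T cell genes. The counts were 6 of 6 for both mast cell and wound keratinocyte genes and 6 of 10 for immediate early genes. Of all tested genes, 18.4% were above control without overlap. The macrophage gene Cd163 was lower in bleomycin (6.8, 2.39 and 2.93 FPKM, against 7.4, 10.3 and 7.02 in control), and the T cell receptor gene Cd3e overlapped control (0.481, 0.792 and 0.792 against 0.513, 0.831 and 0.761). Within the bleomycin group the immediate early list was lowest in bleomycin 2 (373 FPKM, against 1145 and 858 in bleomycin 1 and 3), where Osm, Lif and Socs3 were also lowest. The monocyte and macrophage sum (778 FPKM) was lowest in bleomycin 2 too. So was the neutrophil sum (456 FPKM, against 484 in bleomycin 3), which was mostly S100a8 and S100a9. Other neutrophil genes differed in this. Csf3r was highest in bleomycin 2 (8.06, 8.53 and 7.87 FPKM in bleomycin 1, 2 and 3). Clec4d was lowest in bleomycin 1 (7.6 FPKM) and Cxcr2 in bleomycin 3 (5.38 FPKM). Il6 (1.11 FPKM), the T cell sum (33.9 FPKM) and the mast cell sum (176 FPKM) were lowest in bleomycin 1, and the wound keratinocyte sum (1415 FPKM) in bleomycin 3. The part of these cells and genes in the ligand differences was not tested.

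The receptor chains did not follow the ligands. Lifr (ENSMUSG00000054263, chromosome 15, 7090614 to 7197489), the chain through which LIF signals, was at 8.65, 9.56 and 8.76 FPKM in control and 4.82, 5.66 and 4.68 FPKM in bleomycin. The groups lay well apart, with each bleomycin library below each control library. Its mean fell from 8.99 ± 0.495 to 5.05 ± 0.533 FPKM (SD, n = 3; -0.73 ± 0.18, adjusted p = 0.0469). That call lay close to the threshold. It was lost at pseudocounts of 0.5 (0.0512) and 0.1 (0.0564) and when low genes were kept (0.103). It was also lost without control 1 (0.0960), control 2 (0.154), control 3 (0.106), bleomycin 1 (0.112), bleomycin 2 (0.0786), bleomycin 3 (0.141) or nitrate 1 (0.0548), and without control 1 and bleomycin 1 together (0.183). Over all settings the adjusted p ranged from 0.01 to 0.183.

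Il6st (ENSMUSG00000021756, chromosome 13, 112464070 to 112510086), which encodes the shared chain gp130, was at 59.2, 60.8 and 54.5 FPKM in control and 37.4, 46.9 and 38.5 FPKM in bleomycin. All bleomycin libraries lay below control, but the difference did not pass (-0.50 ± 0.22, adjusted p = 0.196). It passed without nitrate 3 (adjusted p = 0.0429), a library that enters through the shared spread, over a range from 0.0429 to 0.457. Il6ra (ENSMUSG00000027947, chromosome 3, 89864059 to 89913196), the chain that binds IL-6, was at 8.75, 8.04 and 10.3 FPKM in control and 6.20, 6.14 and 8.11 FPKM in bleomycin. These ranges overlapped slightly (-0.36 ± 0.20, adjusted p = 0.281). Osmr (ENSMUSG00000022146, chromosome 15, 6813577 to 6874969), the chain used by oncostatin M, went the other way. It was at 6.31, 6.32 and 5.93 FPKM in control and 7.43, 8.26 and 6.32 FPKM in bleomycin. Bleomycin 3 lay above the highest control library only in digits not printed here, and Osmr did not pass (0.21 ± 0.20, adjusted p = 0.545). The summed fibroblast list was lower in bleomycin than in control, as were the endothelial and fat cell lists. The collagen gene Col1a1 made up most of the fibroblast sum (2483 of 3777 FPKM in control 1). Taken singly, 5 of 7 fibroblast genes were below control without overlap, beside 17.3% of all tested genes, and Pdgfra and Lum overlapped control. The part of these cells in the lower receptor levels was not tested.

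Stat3 (ENSMUSG00000004040, chromosome 11, 100885098 to 100939540) was at 24.4, 21.6 and 20.5 FPKM in control and 35.6, 33.5 and 25.3 FPKM in bleomycin. All bleomycin libraries lay above control, bleomycin 3 only slightly, and the difference did not pass (0.48 ± 0.21, adjusted p = 0.180). Socs3 (ENSMUSG00000053113, chromosome 11, 117966079 to 117970047), the inhibitor that STAT3 induces, was at 14.2, 8.76 and 8.18 FPKM in control and 64.6, 34.0 and 55.9 FPKM in bleomycin 1, 2 and 3. Its lowest bleomycin library was more than double its highest control library. The mean rose 4.96-fold, from 10.4 ± 3.34 to 51.5 ± 15.7 FPKM (SD, n = 3; 2.19 ± 0.29, adjusted p = 0.00603). Socs3 was called in all 20 alternatives, with adjusted p values from 0.00328 to 0.0360 over the settings.

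**Figure D3:**
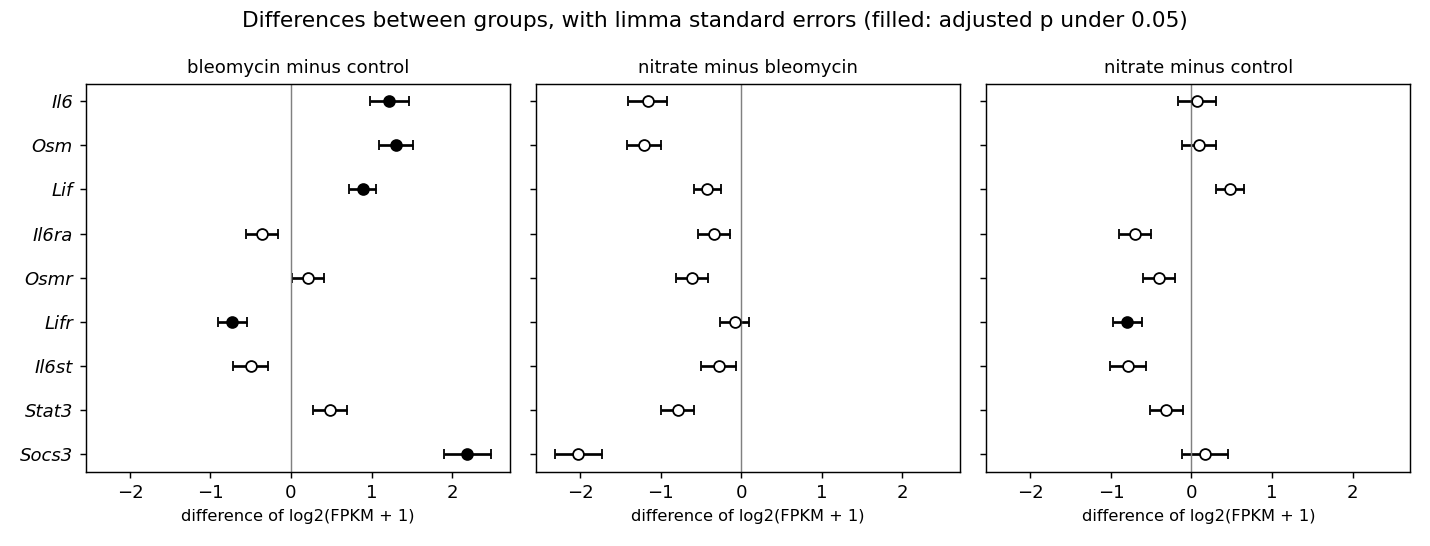
Differences of log2(FPKM + 1) between groups for the 9 tested genes (points) with limma standard errors (bars), for bleomycin minus control, nitrate minus bleomycin and nitrate minus control, with filled points at an adjusted p under 0.05. Osm, Il6, Lif and Socs3 lie above 0 and Lifr below it in the first panel, all 9 estimates lie below 0 in the second, and Lifr alone is filled in the third.

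The comparison of nitrate with bleomycin asked what added nitrate changed in skin exposed to the drug. None of the 14645 genes tested by limma passed (0% called, smallest adjusted p = 0.0619), and thus none of the 9 tested members, and voom on the reads recovered from the table also called 0. At an unadjusted p under 0.05 stood 1096 genes that were higher and 1528 (10.4%) that were lower with nitrate, and 6 members, all lower. All 9 estimates lay below 0, with a median of -0.61, while the median of all tested genes was 0.00. For 6 members, Il6, Osm, Lif, Osmr, Stat3 and Socs3, every nitrate library lay below every bleomycin library, beside 11.8% of all tested genes, and no member was higher without overlap, beside 9.40%. This comparison shares its bleomycin libraries with the one above, and the filter fixed the direction of Il6 and Osm here as well.

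Socs3 was at 14.2, 11.8 and 9 FPKM in nitrate 1, 2 and 3, against 34.0 FPKM in the lowest bleomycin library. The nitrate values lay in and near the control range of 8.18 to 14.2 FPKM. The mean was 11.7 ± 2.62 FPKM with nitrate and 51.5 ± 15.7 with bleomycin (SD, n = 3; -2.02 ± 0.29, adjusted p = 0.0619). Socs3 passed without bleomycin 2 (-2.29, adjusted p = 0.0397) and with the replicate number as a block (adjusted p = 0.0468), over a range from 0.0397 to 0.225.

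Among the ligands, Osm was at 0.240, 0.168 and 0.0925 FPKM in nitrate, from 10, 7 and 4 reads, against 1.04 FPKM or more in bleomycin (-1.21 ± 0.21, adjusted p = 0.0795). Il6 was at 0.404, 0.112 and 0.108 FPKM, from 18, 5 and 5 reads, so that nitrate 1 was highest of its group (-1.16 ± 0.24, adjusted p = 0.103). The mean levels with nitrate were 0.0952 of the bleomycin mean for Osm and 0.117 of it for Il6. Lif kept more of its level, at 1.09, 1.12 and 0.689 FPKM or 0.591 of the bleomycin mean (-0.42 ± 0.17, adjusted p = 0.252). Whether Lif differed from Osm and Il6 in its response was not tested. Il11 was at 0.217, 0.109 and 0.209 FPKM, from 20 reads in all, and overlapped bleomycin (exact permutation test, two-sided, p = 0.3). The summed neutrophil, macrophage and T cell levels were lower in nitrate than in bleomycin libraries too, without overlap. Of their genes taken singly, 6 of 10, 6 of 10 and 4 of 8 were lower without overlap, beside 11.8% of all tested genes. The mast cell, wound keratinocyte and immediate early sums overlapped bleomycin, with 3 of 6, 3 of 6 and 4 of 10 of their genes lower without overlap. The part of these cells and genes in the ligand levels was not tested.

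Stat3 was at 21.4, 19.9 and 12.7 FPKM in nitrate, all below the 25.3 FPKM of the lowest bleomycin library (-0.79 ± 0.21, adjusted p = 0.134). Osmr was at 6.18, 4.70 and 2.95 FPKM, also below every bleomycin library (-0.61 ± 0.20, adjusted p = 0.183). The remaining receptor chains overlapped between the groups. Il6ra was at 6.37, 5.87 and 3.55 FPKM (-0.34 ± 0.20, adjusted p = 0.409) and Il6st at 39.2, 42.1 and 22.3 FPKM (-0.28 ± 0.22, adjusted p = 0.547). Lifr was at 5.52, 5.84 and 3.20 FPKM (-0.08 ± 0.18, adjusted p = 0.862), and its estimate turned to 0.15 without nitrate 3. All 4 receptor chains and Stat3 were lowest in nitrate 3, and Il6, Osm, Lif and Socs3 were also lowest of the nitrate group there. Of all libraries, nitrate 3 had the highest sum of hair follicle genes (11344 FPKM). It also had the lowest endothelial sum (55 FPKM) and the lowest monocyte and macrophage sum (254 FPKM). The part of any of these in the lower levels was not tested. Without nitrate 3 the differences were -0.57 for Stat3 and -0.38 for Osmr (adjusted p = 0.283 and 0.364).

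The comparison of nitrate with control asked how far the treated skin stood from healthy skin. Over all genes 3.63% were called higher and 4.90% lower, and of the 9 members Lifr alone was called, lower with nitrate. It went from 8.99 ± 0.495 FPKM in control to 4.85 ± 1.44 with nitrate (SD, n = 3; -0.80 ± 0.18, adjusted p = 0.0369). The call of Lifr was lost in 11 of 20 alternatives, among them leaving out any single library other than nitrate 2 (0.0512 to 0.130), and its adjusted p ranged from 0.0195 to 0.134. Without nitrate 3 its difference was -0.58. Il6st and Il6ra were also below control in every nitrate library, beside 17.5% of all tested genes, and did not pass. Il6st had a mean of 34.5 ± 10.7 against 58.2 ± 3.29 FPKM (-0.79 ± 0.22, adjusted p = 0.0633) and Il6ra of 5.26 ± 1.51 against 9.02 ± 1.13 FPKM (-0.70 ± 0.20, adjusted p = 0.0608). Il6st passed with sample weights (0.0428) and without nitrate 2 (0.0297), and Il6ra without nitrate 2 (0.0466). The fibroblast sum of the nitrate libraries, 1254 to 1941 FPKM, was likewise below control and close to that of bleomycin. Taken singly, 4 of 7 fibroblast genes were below control without overlap, while Pdgfra, Dcn and Pdgfrb overlapped control. Lower without overlap were also 6 of 6 endothelial, 6 of 6 skeletal muscle and 5 of 6 fat cell genes, beside 17.5% of all tested genes. The part of these cells in the lower receptor levels was not tested.

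Lif was above control in every nitrate library, beside 17.3% of all tested genes, at 0.965 ± 0.240 against 0.407 ± 0.0693 FPKM (SD, n = 3), and did not pass (0.48 ± 0.17, adjusted p = 0.107). No control library reached 1 FPKM of Lif, so the filter on low values bears on this direction. Il6, Osm, Osmr, Stat3 and Socs3 overlapped control. The differences were 0.07 ± 0.24 for Il6, 0.09 ± 0.21 for Osm, -0.40 ± 0.20 for Osmr, -0.31 ± 0.21 for Stat3 and 0.17 ± 0.29 for Socs3, with adjusted p values from 0.210 to 0.867. The estimates of Il6 and Osm were negative under quantile normalization, at -0.23 and -0.19.

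Ratios of members within a library do not depend on how libraries were scaled, and 4 of them were compared after the values had been seen, with the sum of the 4 ligands. Osmr was set against Lifr, the chains used by oncostatin M and by LIF. This ratio stood at 0.729, 0.662 and 0.677 in control, 1.54, 1.46 and 1.35 in bleomycin and 1.12, 0.804 and 0.921 in nitrate. The 3 groups did not overlap, with bleomycin highest, nitrate between and control lowest. Osmr exceeded Lifr in every bleomycin library and in none of control. Osmr against Il6st was 0.107 ± 0.00252 in control, 0.180 ± 0.0178 in bleomycin and 0.134 ± 0.0235 in nitrate (SD, n = 3), and the 3 groups again did not overlap. Il6ra against Il6st differed little, at 0.156 ± 0.0288, 0.169 ± 0.0396 and 0.154 ± 0.0131. Socs3 against Stat3 was 0.462 ± 0.104 in control, 1.68 ± 0.607 in bleomycin and 0.654 ± 0.0580 in nitrate, so that Socs3 exceeded Stat3 per length in the bleomycin libraries alone. The ligands summed to 0.820 ± 0.238, 5.53 ± 1.17 and 1.52 ± 0.425 FPKM. Each of these group differences without overlap had the smallest p that 3 libraries against 3 allow (exact permutation test, two-sided, p = 0.1, and 0.15 adjusted over the 18 tests of this kind).

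**Figure D4:**
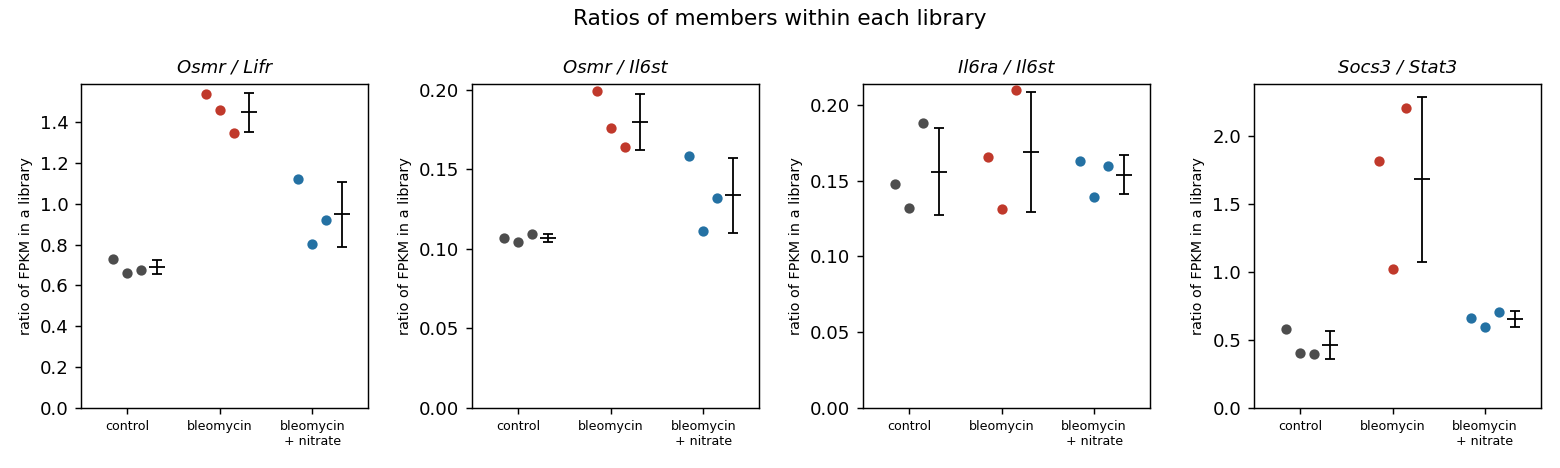
Ratio of FPKM between 2 genes within each library (points), with the mean and SD of each group of 3 libraries (bars), on axes that start at 0. Osmr over Lifr is 0.729 or below in control, 1.35 or above in bleomycin and 0.804 to 1.12 in nitrate, while Il6ra over Il6st overlaps between the groups.

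The other genes of the pathway were described by 5 lists of 45 genes in all, chosen with earlier results of these data known. Of the 45 genes 41 were tested. With bleomycin 11 were higher and 1 lower, with a median difference of 0.33 beside 0.01 over all tested genes, of which 4.74% and 3.69% were called. At an unadjusted p under 0.05 stood 18 higher and 3 lower, beside 14.0% and 12.8% of all genes. Leaving out control 2 left 0 of the higher calls and the 1 lower call (Il31ra). The higher calls numbered 3 without control 3, 4 without bleomycin 1, 6 without bleomycin 2, 6 without bleomycin 3, 4 with no filter on low values and 1 without control 1 and bleomycin 1 together. With nitrate against bleomycin none passed by limma or voom (0% of all genes), and 22 were lower at an unadjusted p under 0.05, beside 10.4% of all tested genes. Below 0 were 35 of 41 estimates, beside 7384 of 14645 over all tested genes, and the median of the 41 was -0.49. The same bleomycin libraries enter both comparisons, so these counts do not stand apart from the higher calls with bleomycin. Against control, nitrate had 1 gene higher and 6 lower, beside 3.63% and 4.90% of all genes. These 7 calls became 0 without control 2, and 1 when either control 1 or nitrate 3 was left out. They became 3 when either control 3 or bleomycin 3 was left out, and 4 for bleomycin 1 or 2.

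Of 8 other ligand genes, 4 were tested and 1 was higher with bleomycin. This was Clcf1, a ligand of the ciliary neurotrophic factor receptor, from 0.889 ± 0.558 to 3.75 ± 1.57 FPKM (1.32 ± 0.26, adjusted p = 0.0216), with 1.67 ± 0.225 FPKM in nitrate. Ebi3, a subunit shared by IL-27 and IL-35, had 1.71, 3.90 and 1.42 FPKM in control, bleomycin and nitrate, and did not pass. Il31 was listed at 0 in all libraries. Of 4 other receptor chains 1 was lower, Il31ra, the receptor chain for the itch cytokine IL-31, which pairs with the product of Osmr. Il31ra was at 2.5, 1.64 and 2.04 FPKM in control, 0.260, 0.254 and 0.200 in bleomycin and 0.663, 0.597 and 0.269 in nitrate. It was below control in all 6 bleomycin-exposed libraries (-1.30 ± 0.17, adjusted p = 0.00674 with bleomycin, and -1.02 ± 0.17, adjusted p = 0.0188 with nitrate), but reached 1 FPKM in control alone, so the filter fixed that direction. Il11ra1, the chain for IL-11, had 26.5, 18.8 and 25.2 FPKM and Il27ra, a chain for IL-27, 0.744, 1.21 and 0.803 FPKM, and neither passed.

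None of 6 genes for JAK kinases and other STAT factors was called with bleomycin by limma, and 2 were higher at an unadjusted p under 0.05. The kinase gene Jak2 had 12.1, 15.5 and 11.6 FPKM in control, bleomycin and nitrate. Stat5a, a factor of growth hormone and cytokine signals, was lower with nitrate than in control (5.90 ± 0.520 to 3.42 ± 0.719 FPKM, -0.65 ± 0.16, adjusted p = 0.0466). Of 7 inhibitors and phosphatases, Socs1, the relative of Socs3 that acts on interferon signals, was higher with bleomycin (1.66 ± 0.118 to 3.33 ± 0.742 FPKM, 0.69 ± 0.17, adjusted p = 0.0432). Socs2, which restrains growth hormone signals, was lower with nitrate than in control (2.87 ± 0.103 to 1.33 ± 0.542 FPKM, -0.76 ± 0.18, adjusted p = 0.0377). Cish, another relative, had 5.90, 3.57 and 2.86 FPKM and the phosphatase gene Ptpn6 11.8, 18.0 and 9.86 FPKM, and neither passed. The calls of Stat5a, Socs1 and Socs2 held in 8, 9 and 8 of 19 alternatives.

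Of 20 genes known as induced by STAT3, 9 were called higher and 0 lower with bleomycin by limma (12 and 0 at an unadjusted p under 0.05), beside 4.74% and 3.69% of all genes called (14.0% and 12.8% unadjusted), with a median difference of 0.73. Many of them answer to NF-kappa-B, AP-1 and other signals too, and Junb also stands in the immediate early list. Saa3, an acute phase protein, rose from 1.98 ± 1.81 to 38.4 ± 22.5 FPKM (3.74 ± 0.80, adjusted p = 0.0291), and Lcn2, an iron-binding protein of innate defence, from 1.73 ± 1.04 to 21.9 ± 12.6 FPKM (2.98 ± 0.62, adjusted p = 0.0257). The AP-1 subunit genes Fosl1 and Junb rose by 2.29 ± 0.46 (adjusted p = 0.0219) and 1.93 ± 0.32 (adjusted p = 0.0120). Bcl3, a cofactor of NF-kappa-B, rose by 1.74 ± 0.31 (adjusted p = 0.0153), the interleukin-4 receptor gene Il4ra by 1.31 ± 0.31 (adjusted p = 0.0369) and the survival kinase gene Pim1 by 1.13 ± 0.19 (adjusted p = 0.0129). Hif1a, the hypoxia factor, and Cebpb, a factor of acute phase genes, rose by 0.85 ± 0.17 and 0.77 ± 0.16 (adjusted p = 0.0231 and 0.0281). The matrix protease inhibitor gene Timp1 (1.56 ± 0.50, adjusted p = 0.0937) and the cyclin gene Ccnd1 (0.69 ± 0.21, adjusted p = 0.0827) did not pass. Of the 9 calls, those of Pim1 and Junb held in 18 of 20 alternatives, that of Bcl3 in 17, and the others in 11 to 14. Without control 2 none of the 9 passed, with adjusted p values from 0.0532 for Bcl3 to 0.135 for Il4ra.

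With nitrate against bleomycin, all 20 estimates of this list lay below 0, beside 7384 of 14645 over all tested genes, with a median of -0.76. None passed, and 14 were lower at an unadjusted p under 0.05, beside 10.4% of all tested genes. The bleomycin libraries are those in which 9 of the 20 genes were called higher than control. The list was also chosen with earlier results known. The shares over all genes are therefore not a like comparison, and these counts add no separate support. Saa3 had 7.67, 0 and 0.565 FPKM in nitrate 1, 2 and 3, so that nitrate 1 set its mean (-3.89 ± 0.80, adjusted p = 0.103), Fosl1 2.05 ± 0.755 (-2.49 ± 0.46, adjusted p = 0.0915) and Lcn2 4.96 ± 3.55 (-2.03 ± 0.62, adjusted p = 0.159). Saa3 passed without nitrate 1 (0.0415) and with the replicate number as a block (0.0468), and Fosl1 without bleomycin 2 (0.0397). Pim1 stayed near its bleomycin level, at 30.1 ± 2.93 FPKM with nitrate against 36.7 ± 9.53, and was higher than in control (0.88 ± 0.19, adjusted p = 0.0335). Against control, 3 genes of the list were lower with nitrate. These were Cebpd, a factor of the acute phase response (28.6 ± 7.67 to 10.5 ± 1.08 FPKM, -1.33 ± 0.19, adjusted p = 0.0130), Nnmt, a methyltransferase of nicotinamide (19.8 ± 6.66 to 8.02 ± 1.65 FPKM, -1.18 ± 0.24, adjusted p = 0.0296), and Fgl2, a secreted fibrinogen-like protein (59.2 ± 7.17 to 28.9 ± 9.81 FPKM, -1.06 ± 0.26, adjusted p = 0.0422). The call of Cebpd held in 19 of 20 alternatives, that of Nnmt in 13, that of Pim1 in 12 and that of Fgl2 in 9, and none of the 4 held without control 2 (adjusted p = 0.0520, 0.0878, 0.119 and 0.137).

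**Figure D5:**
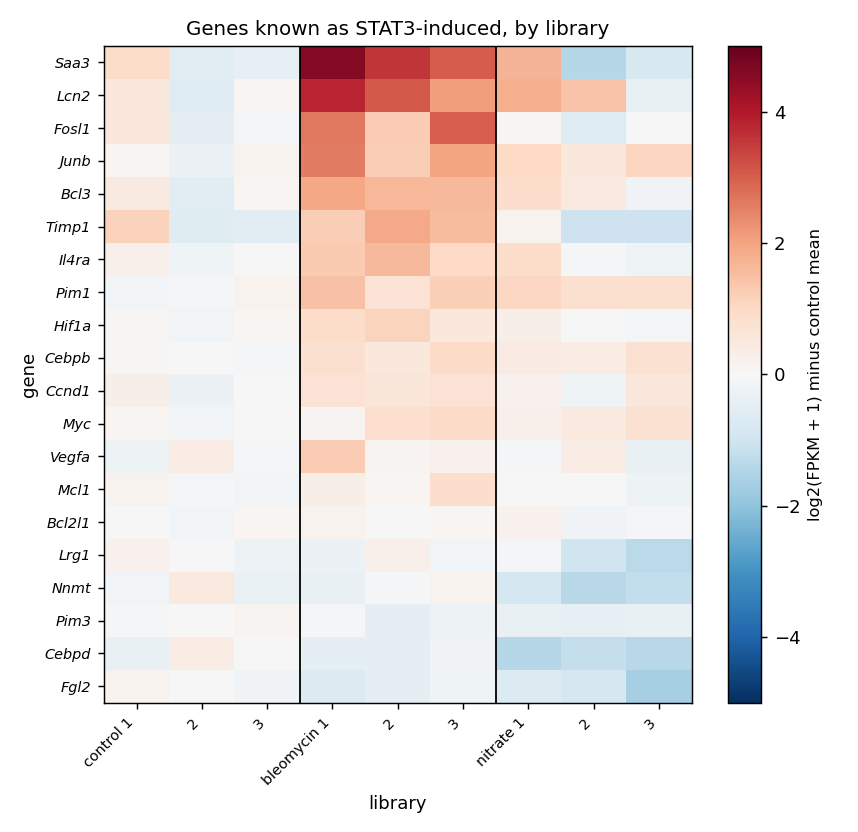
Log2(FPKM + 1) minus the control mean for 20 genes known as induced by STAT3 (rows, ordered by the bleomycin difference) in the 9 libraries (columns). The upper rows, from Saa3 to Il4ra, are red in the bleomycin libraries and paler or blue in nitrate libraries, Pim1 and Cebpb overlap between bleomycin and nitrate, and Nnmt and Cebpd near the bottom are lower in every nitrate library than in all others.

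The genes whose levels followed a member most closely over the 9 libraries were found by Pearson correlation of log2(FPKM + 1), as a description in which libraries of a group and their cell content are shared. For Il6 these were Mcemp1, a gene of mast cells and myeloid cells (r = 0.981), the vesicle traffic gene Rab20 (0.977), the inflammasome sensor gene Nlrp3 (0.977) and Igkv17-121, an immunoglobulin segment whose reads cannot be told with certainty from those of similar segments (0.973). Nlrp3 had 0.300, 2.22 and 0.281 FPKM in control, bleomycin and nitrate. For Socs3 they were the cytokine gene Il1b (0.979), Tbc1d14 (0.978), Plscr1 (0.975) and the antioxidant regulator gene Nfe2l2 (0.975), and Nfe2l2 had 15.6, 30.5 and 17.2 FPKM in the same order. For Osmr they were Atp10a (0.971), Gm4951 (0.968), Cmip (0.964) and Dtx3l (0.962). Among the tested members, Osm and Socs3 had r = 0.98, Il6 and Osm 0.90, Osmr and Stat3 0.93, and Il6st and Lifr 0.96, while Lifr and Lif had -0.62.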

How the data were processed

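The authors deposited 1 table of FPKM values for 54532 genes in 9 skin RNA libraries, with gene positions and lengths. The genome build was mm10, per the submitters' processing notes, and no aligner or counting tool is given in the sources used here. Multiplied by gene length, 100% of the values were whole multiples (within 0.01) of the value of 1 read in their library. This gave whole reads, 15804050 to 18352592 per library. The library size that the values imply was not equal to these reads. It was 0.916 to 0.967 of them in control, 0.995 to 1.07 in bleomycin and 1.03 to 1.09 in nitrate. Genes with at least 1 FPKM in at least 3 of 9 libraries (14645) were tested with limma 3.58.1 in R 4.3.3 on log2(FPKM + 1), in 1 fit of 3 group means (eBayes with trend and robust), two-sided, with calls at an adjusted p under 0.05 (Benjamini-Hochberg). The test was tried on simulated data. Single values were tested by exact permutation (scipy 1.17.1), and figures drawn with matplotlib 3.10.9.

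The members, gene lists and tests were chosen with earlier results of these data known. Named were all members, pathway genes that passed in at least 1 comparison, up to 2 others per list with the smallest p for bleomycin against control, and the 4 genes most correlated with Il6, Osmr and Socs3. Some pathway genes that fall under this rule are not reported here. Groups came from sample titles. Alternatives were voom on the recovered reads, sample weights, a block for the replicate number, a fit of only the groups compared, quantile normalization or scaling by median ratios, testing every gene or those with a mean of 5 FPKM or more, pseudocounts of 0.5 and 0.1, leaving out each library in turn with the tested genes kept, and leaving out control 1 and bleomycin 1 together. Promoter windows came from RefSeq (GRCm38.p6), and 9 of the 10 members have the same bounds in the table as in GENCODE M21, Il11 being the exception.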

Additional observations from a re-analysis of the deposited data

How the results depend on the processing

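For bleomycin against control, 5 of 9 members, 12 of 41 pathway genes and 1234 of 14645 genes were called. With a mean FPKM of at least 5 these became 2 members and 747 genes, with no filter 5 pathway genes and 676 genes, with sample weights 1947 genes, and without control 1 and bleomycin 1 together 1 member (Socs3), 1 pathway gene and 137 genes. Leaving out each library in turn gave 2 to 6 members, 1 to 13 pathway genes and 334 to 1539 genes. For nitrate against bleomycin, where 0 were called, the replicate block gave 1 member (Socs3), 1 pathway gene (Saa3) and 10 genes, and leaving out single libraries gave 0 to 1 member, 0 to 1 pathway gene and 0 to 37 genes. For nitrate against control, 1 member, 7 pathway genes and 1249 genes were called. With no filter these were 0, 2 and 294, with only the groups compared 0, 2 and 306, without control 1 and bleomycin 1 together 0, 1 and 23, with a mean FPKM of at least 5 there were 4 pathway genes, and sample weights gave 2 members and 2085 genes. Leaving out single libraries gave 0 to 3 members, 0 to 10 pathway genes and 45 to 2882 genes. Estimates near 0 turned sign for Lifr in nitrate against bleomycin (0.00 with sample weights, and -0.21 to 0.15 over single libraries left out, positive without nitrate 3), and in nitrate against control for Il6 (-0.23 with quantile normalization, and -0.05 to 0.12 over single libraries left out, negative without nitrate 1) and Osm (-0.19 with quantile normalization). The cause of these changes was not tested, beyond the smaller or larger number of genes or libraries in some settings. Of 531 estimates of tested members under alternatives, 487 kept both direction and side of the threshold.

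The replicate number was not taken as a pairing, since deviations of same-numbered libraries correlated from -0.39 to 0.52. With the replicate block, 5 members were called for bleomycin against control and 1 for nitrate against control. The planned negative binomial test on recovered reads was not run, since the table holds FPKM. Voom on the recovered reads called 5 members, 9 pathway genes and 1128 genes for bleomycin against control, 0 of each for nitrate against bleomycin, and 1, 7 and 1255 for nitrate against control. Depth limits Il11, Il6 and Osm most, with 11 to 18 reads over the 3 control libraries.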
